A study of Oryza sativa with 12 samples.

Results

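The 6 rice *SWEET* genes described here are *SWEET4* (LOC_Os02g19820), *SWEET11* (LOC_Os08g42350), *SWEET12* (LOC_Os03g22590), *SWEET13* (LOC_Os12g29220), *SWEET14* (LOC_Os11g31190) and *SWEET15* (LOC_Os02g30910). They were chosen by their MSU identifiers, as 6 of the 35587 genes with a value in at least 1 library. Their levels were not part of the rule, but earlier results of these data were known when they were chosen. The deposited values carry identifiers without gene names, so the names are those in general use for these loci. The 5 members other than *SWEET12* had a value in all 12 libraries and were among the 21470 genes that were tested. *SWEET12* did not reach the mean of 1 FPKM needed for testing and is given by its values alone.

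Developing caryopses of *RGB1Ri-5* and of its background *WYJ8* (Wuyujing 8, a japonica rice variety) were compared at 5 and 10 days after flowering (DAF). *RGB1Ri-5* is a single transgenic line in which a hairpin RNA against *RGB1*, the Gβ subunit gene of the heterotrimeric G protein, is driven by the maize ubiquitin promoter, which is active in most tissues and not only in the grain. *WYJ8* is the wildtype that the line was made in, both genotypes were grown in the field, and other *RGB1* RNAi lines were not analysed here. Each of the 4 groups (*RGB1Ri-5* and then *WYJ8* at 5 DAF, and the same at 10 DAF) had 3 libraries of RNA from whole grains, and the knockdown itself was not analysed here. The labels do not say whether the 3 libraries came from separate plants, so p-values measure only the spread between these libraries, which may be technical.

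SWEET proteins are membrane carriers that let sugars move across a membrane down their gradient, without coupling to protons. The developing endosperm has no symplastic connection to the maternal tissue around it, so sugar must leave maternal cells and enter filial cells through such carriers. In rice, SWEET4 moves hexoses and is needed for seed filling, while SWEET11 and SWEET15 export sucrose and together are needed for endosperm filling. SWEET12, SWEET13 and SWEET14 belong to the same sucrose-transporting clade as SWEET11 and SWEET15, and *SWEET11*, *SWEET13* and *SWEET14* are also known as genes that leaf-blight *Xanthomonas* bacteria switch on in leaves.

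In the deposited coordinates of the MSU Release 7 annotation, *SWEET4* lies on chromosome 2 from 11592219 to 11596451 and *SWEET15* on chromosome 2 from 18454403 to 18457136. *SWEET11* lies on chromosome 8 from 26725897 to 26728795, *SWEET12* on chromosome 3 from 13004685 to 13008130, *SWEET13* on chromosome 12 from 17302072 to 17305326 and *SWEET14* on chromosome 11 from 18171677 to 18174478. The members are paralogs, and how reads that match several of them were shared out is not given in the sources used here.

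Levels are in FPKM, fragments scaled to transcript length and to the mapped reads of a library, which allows genes of different length to be compared. Between 27055 and 29576 genes were listed per library, and the listed values summed to 543480 to 618800 FPKM. The number of reads behind a value is unknown, and low values placed the relative depths of the libraries between 0.883 and 1.09, with *WYJ8* at 5 DAF, replicate 1, taken as 1, a measure chosen after seeing the data. The 100 highest genes held 48.7% to 52.8% of the sum in *WYJ8* at 10 DAF and 12.9% to 22.4% in the other groups. A fold change at 10 DAF against *WYJ8* is therefore read beside the median of all tested genes.

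Replicate 2 of *RGB1Ri-5* at 10 DAF stood apart from the other libraries of its group. The summed FPKM of 10 starch synthesis genes was 8508 there, against 3201 and 1925 in replicates 1 and 3, and the transcription factor gene *NF-YB1*, which is expressed in endosperm, was at 109.6 FPKM there, against 17.5 and 8.04. Fold changes of the members that rest on this group are given with and without that library. Replicate 3 of *WYJ8* at 5 DAF stood apart as well, with a summed FPKM of 5 storage protein genes of 17472, against 4852 and 4487 in replicates 1 and 2, and *NF-YB1* at 294 FPKM, against 148 and 133. Without it, *SWEET4* (1.76), *SWEET15* (1.53) and *SWEET11* (-1.01) still passed between the genotypes at 5 DAF on the log2 scale used below, and the calls that changed are given beside their genes.

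*SWEET4* and *SWEET11* held most of the summed FPKM of the 6 genes in every group, but which of them was higher depended on genotype and stage. In *RGB1Ri-5* at 5 DAF *SWEET4* came first at 939.9 ± 184 FPKM (SD, n = 3), 5.17 times the mean of *SWEET11*. *SWEET11* came first in *WYJ8* at 5 DAF at 377 ± 57.0 FPKM (SD, n = 3), and its range did not overlap that of *SWEET4* there. The order of means in *RGB1Ri-5* at 10 DAF was *SWEET11*, *SWEET4*, *SWEET15*, *SWEET13* and *SWEET14*, with overlapping ranges for the first pair only. The order in *WYJ8* at 10 DAF was *SWEET11*, *SWEET14*, *SWEET4*, *SWEET15* and *SWEET13*, and only *SWEET14* and *SWEET4* overlapped.

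The lower part of the order at 5 DAF was *SWEET15*, *SWEET14* and *SWEET13* in both genotypes. The ranges of *SWEET14* and *SWEET13* overlapped in *RGB1Ri-5*, and in *WYJ8* the ranges of *SWEET15* and *SWEET14* and of *SWEET14* and *SWEET13* overlapped. *SWEET12*, the remaining clade member, was at 0.046 FPKM in replicate 1 of *RGB1Ri-5* at 10 DAF and was not listed in the other 11 libraries. A gene that is not listed was taken as 0 FPKM, although 1 gene with a mean above 100 FPKM in *WYJ8* at 5 DAF was also unlisted in every *WYJ8* library at 10 DAF, so an unlisted gene need not be an unexpressed one.

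**Figure D1:**
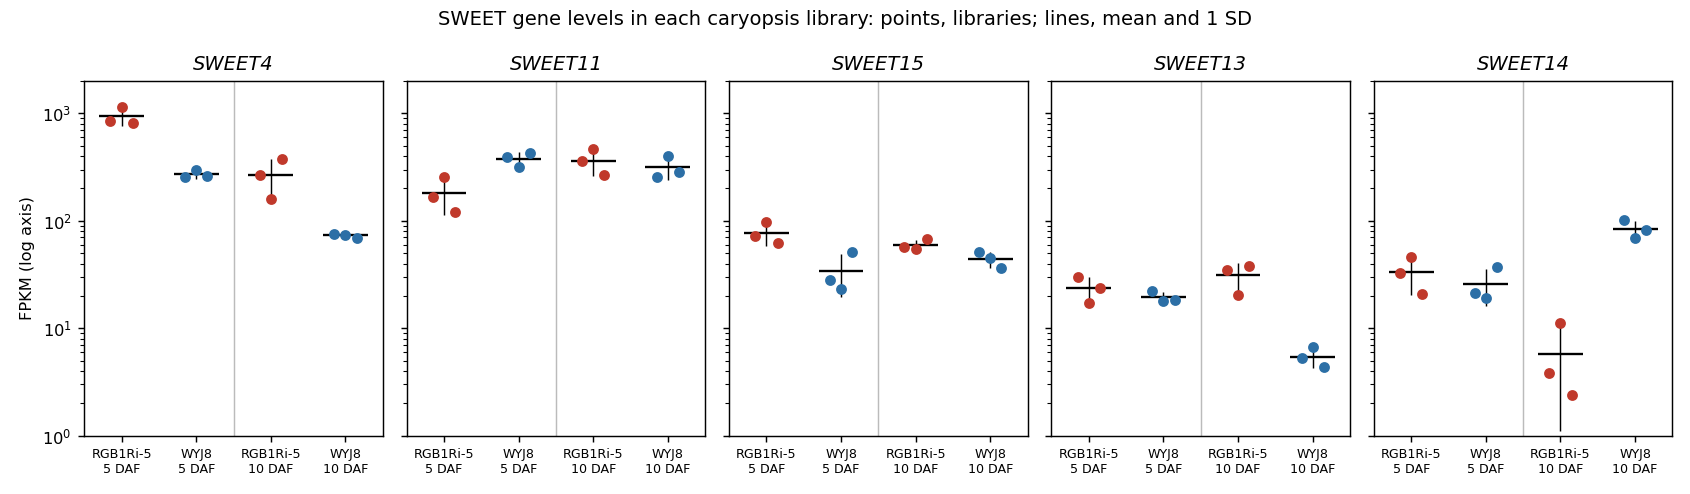
FPKM on a log axis of the 5 *SWEET* genes with a value in every library, with a point for each library, a horizontal line for the mean and a vertical line for 1 SD (n = 3 per group), *RGB1Ri-5* in red and *WYJ8* in blue. *SWEET4* was highest in *RGB1Ri-5* at 5 DAF (820.0 to 1152 FPKM), and *SWEET14* was lowest in *RGB1Ri-5* at 10 DAF (2.40 to 11.2 FPKM) and highest in *WYJ8* at 10 DAF (68.6 to 101 FPKM).

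The first comparison asked how the *SWEET* genes differed between the genotypes at the early stage. At 5 DAF, *SWEET4* and *SWEET15* were upregulated and *SWEET11* was downregulated in *RGB1Ri-5*, while *SWEET13* and *SWEET14* did not pass the test. A gene was taken as differentially expressed at an adjusted p-value (limma, Benjamini-Hochberg over all tested genes) under 0.05 with at least a 2-fold change either way (1 on the log2 scale). By this rule 3 of the 5 tested members were differentially expressed, beside 20.8% of all tested genes (10.8% higher and 10.1% lower in *RGB1Ri-5*), and with so few members the count is a description. Log2 fold changes are of FPKM plus 1, which understates changes of low values.

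*SWEET4*, the hexose carrier, had 848, 1152 and 820.0 FPKM in *RGB1Ri-5* at 5 DAF, against 254, 295 and 259.9 FPKM in *WYJ8*. All 3 *RGB1Ri-5* libraries lay above all *WYJ8* libraries, and *SWEET4* ranked between 17 and 46 among all genes of an *RGB1Ri-5* library and between 219 and 248 in *WYJ8*. The ratio of means was 3.48, with a log2 fold change of 1.78 (SE 0.25, limma adjusted p = 0.000138). Over all tested genes the median was -0.07 on the same scale, and when libraries were rescaled by median of ratios (dividing each by its median ratio to a geometric-mean library), the same 3 members passed beside 20.1% of all tested genes, with *SWEET4* at 1.87.

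*SWEET15*, a sucrose exporter of the filling grain, had 72.7, 97.9 and 61.6 FPKM in *RGB1Ri-5* at 5 DAF, against 28.2, 23.4 and 51.1 FPKM in *WYJ8*. The groups did not overlap, but replicate 3 of *WYJ8* came near the lowest *RGB1Ri-5* library. The log2 fold change was 1.21 (SE 0.26, limma adjusted p = 0.00212), and without replicate 2 of *WYJ8* it was 0.98 and no longer reached the fold limit.

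*SWEET11*, the sucrose exporter with which *SWEET15* acts, went the other way, with 168, 256 and 122 FPKM in *RGB1Ri-5* at 5 DAF, against 389.9, 314 and 426 FPKM in *WYJ8*. Every *RGB1Ri-5* library lay below every *WYJ8* library, and the mean was 182 ± 68.3 FPKM in *RGB1Ri-5* and 377 ± 57.0 FPKM in *WYJ8* (SD, n = 3 each). The log2 fold change was -1.10 (SE 0.29, limma adjusted p = 0.00707), and without replicate 3 of *RGB1Ri-5* it was -0.85 and no longer reached the fold limit. After median-of-ratios rescaling it was -1.01 (limma adjusted p = 0.0203) and barely passed that limit. *SWEET4*, *SWEET11* and *SWEET15* were thus the 3 members whose groups did not overlap at this stage, as was the case for 61.5% of all tested genes.

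*SWEET13* had 29.7, 17.1 and 23.8 FPKM in *RGB1Ri-5* at 5 DAF, against 22.2, 18.0 and 18.5 FPKM in *WYJ8*, and *SWEET14* had 32.7, 46.5 and 21.0 FPKM in *RGB1Ri-5*, against 21.3, 19.2 and 37.5 FPKM in *WYJ8*. The genotypes overlapped for both genes. Their log2 fold changes were 0.23 (SE 0.24, limma adjusted p = 0.466) for *SWEET13* and 0.34 (SE 0.43, limma adjusted p = 0.534) for *SWEET14*.

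The ratio of *SWEET4* to *SWEET11* within a library does not change when all its values are multiplied by 1 factor. It was 5.06, 4.50 and 6.73 in *RGB1Ri-5* at 5 DAF, against 0.652, 0.940 and 0.610 in *WYJ8*. *SWEET4* exceeded *SWEET11* in all 3 *RGB1Ri-5* libraries and in none of the *WYJ8* libraries of this stage. As a share of the summed FPKM of the 6 genes, *SWEET4* took 75.1% ± 2.71 in *RGB1Ri-5* and 37.5% ± 5.89 in *WYJ8*, and *SWEET11* took 14.2% ± 2.37 in *RGB1Ri-5* and 51.7% ± 4.18 in *WYJ8* (SD, n = 3 each). Neither share overlapped between the genotypes (2-sided exact permutation test, p = 0.1, the smallest that 3 against 3 libraries can give, adjusted p = 0.24 over 12 such tests). The share of *SWEET15* overlapped, at 6.14% ± 0.238 in *RGB1Ri-5* and 4.62% ± 1.59 in *WYJ8* (SD, n = 3 each, exact permutation p = 0.4, adjusted p = 0.53). Those of *SWEET13* and *SWEET14* overlapped too. The sum itself was 1256 ± 276 FPKM in *RGB1Ri-5* and 726 ± 62.0 FPKM in *WYJ8* (SD, n = 3 each).

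**Figure D2:**
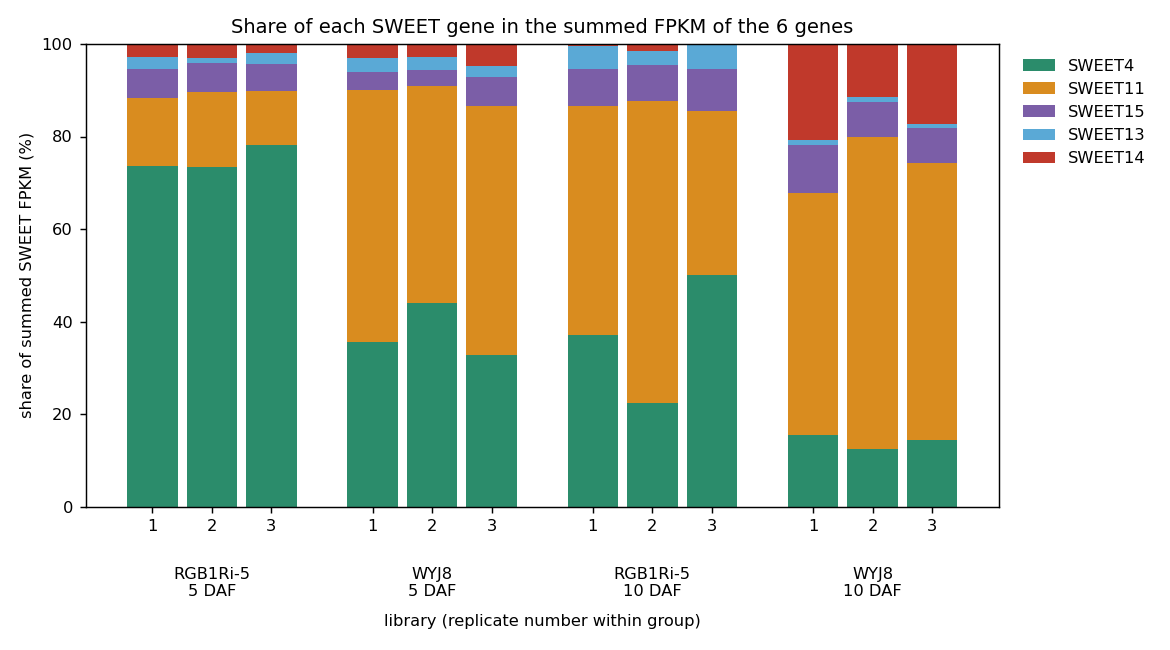
Share (%) of each *SWEET* gene in the summed FPKM of the 6 genes, with 1 stacked bar per library and the 4 groups side by side; *SWEET12* is left out because its share did not exceed 0.0063% in any library. *SWEET4* took 73.4% to 78.2% in *RGB1Ri-5* at 5 DAF and 12.4% to 15.5% in *WYJ8* at 10 DAF, and *SWEET14* took 0.322% to 1.57% in *RGB1Ri-5* and 11.5% to 20.7% in *WYJ8* at 10 DAF.

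Other gene groups moved with genotype at 5 DAF. Of 11 identifiers of starch synthesis genes 10 were listed and tested, and these 10 were lower in *RGB1Ri-5*, with a summed level of 141 to 174 FPKM in *RGB1Ri-5* and 3332 to 5393 FPKM in *WYJ8*. *NF-YB1* had 0.155, 0.607 and 0.0754 FPKM in *RGB1Ri-5*, against 148, 133 and 294 FPKM in *WYJ8*, and thus was near 0 in every *RGB1Ri-5* library. Of 10 light-harvesting and small Rubisco subunit genes, which mark green tissue such as the pericarp, 9 were higher and 1 was lower in *RGB1Ri-5* (none lower after median-of-ratios rescaling), with sums of 5726 to 6759 FPKM in *RGB1Ri-5* and 1176 to 1582 FPKM in *WYJ8*. Since whole grains were measured, fewer cells of a type and less RNA per cell cannot be told apart, and the part of these differences in the *SWEET* values was not tested. Apart from *NF-YB1*, whose identifier the study gives, the identifiers of these groups come from general knowledge, so they are given as counts and sums only.

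At 10 DAF *SWEET4* passed again, but the other members past the threshold were not those of 5 DAF. *SWEET4* and *SWEET13* were upregulated and *SWEET14* was downregulated in *RGB1Ri-5*, 3 of the 5 tested members beside 39.7% of all tested genes (36.4% higher and 3.33% lower in *RGB1Ri-5*). Over all tested genes the median log2 difference was 0.80, so a positive value at this stage is read against that shift. After median-of-ratios rescaling that median was 0.01, and 2000 genes were higher and 1939 lower in *RGB1Ri-5*, compared with 7811 higher and 716 lower in FPKM as deposited. With this rescaling *SWEET13* and *SWEET14* were still differentially expressed and *SWEET4* was not, beside 18.3% of all tested genes.

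At 10 DAF *SWEET14* had the largest genotype difference of the 5 tested members, larger than that of any of them at 5 DAF. It had 3.83, 11.2 and 2.40 FPKM in *RGB1Ri-5* at 10 DAF, against 101, 68.6 and 82.6 FPKM in *WYJ8*. The highest *RGB1Ri-5* library, replicate 2, still lay below the lowest *WYJ8* library. The mean in *RGB1Ri-5* was 14.5 times lower, with a log2 fold change of -3.85 (SE 0.43, limma adjusted p = 1.19e-05), which is opposite in sign to the median of all genes. After median-of-ratios rescaling it was -4.76, and without replicate 2 of *RGB1Ri-5* it was -4.38 in FPKM as deposited.

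*SWEET13* had 35.0, 20.4 and 38.4 FPKM in *RGB1Ri-5* at 10 DAF, against 5.25, 6.70 and 4.37 FPKM in *WYJ8*. The groups were far apart, and replicate 2 was the lowest of the *RGB1Ri-5* libraries. The ratio of means was 5.74 and the log2 fold change 2.29 (SE 0.24, limma adjusted p = 9.59e-06). The value was 2.56 without replicate 2 of *RGB1Ri-5*, and 1.40 (adjusted p = 0.000444) after median-of-ratios rescaling.

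*SWEET4* had 267, 158 and 373 FPKM in *RGB1Ri-5* at 10 DAF, against 76.0, 74.2 and 69.3 FPKM in *WYJ8*. The *WYJ8* libraries lay close together, and replicate 2 was again the lowest of *RGB1Ri-5*. The ratio of means was 3.63 and the log2 fold change 1.76 (SE 0.25, limma adjusted p = 6.45e-05), or 2.09 without replicate 2 of *RGB1Ri-5*. After median-of-ratios rescaling it was 0.78 (limma adjusted p = 0.00723), below the fold limit, so *SWEET4* exceeded the median gene by less than 2-fold there. Under quantile normalization it passed at 1.35 (limma adjusted p = 0.0127), where the median of all tested genes was 0.06. With an equal total without the 100 highest genes it passed at 1.14 (limma adjusted p = 0.00105), where that median was 0.30.

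*SWEET11* had 357, 464 and 264 FPKM in *RGB1Ri-5* at 10 DAF, against 256, 403 and 286 FPKM in *WYJ8*, and the genotypes overlapped. Its log2 fold change was 0.19 (SE 0.29, limma adjusted p = 0.547) as deposited, -0.0088 without replicate 2 of *RGB1Ri-5* and -0.80 (adjusted p = 0.0507) after median-of-ratios rescaling. *SWEET15* had 57.3, 55.3 and 67.4 FPKM in *RGB1Ri-5*, against 50.8, 45.1 and 36.2 FPKM in *WYJ8*. Its groups did not overlap, but its log2 fold change of 0.45 (SE 0.26, limma adjusted p = 0.126) missed the threshold (0.50 without replicate 2 of *RGB1Ri-5*), and it was -0.53 after median-of-ratios rescaling. No direction is given for *SWEET11* or *SWEET15* at 10 DAF, since the sign turned with the scaling. With *SWEET15*, 4 of the 5 tested members had groups that did not overlap, as did 81.9% of all tested genes.

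**Figure D3:**
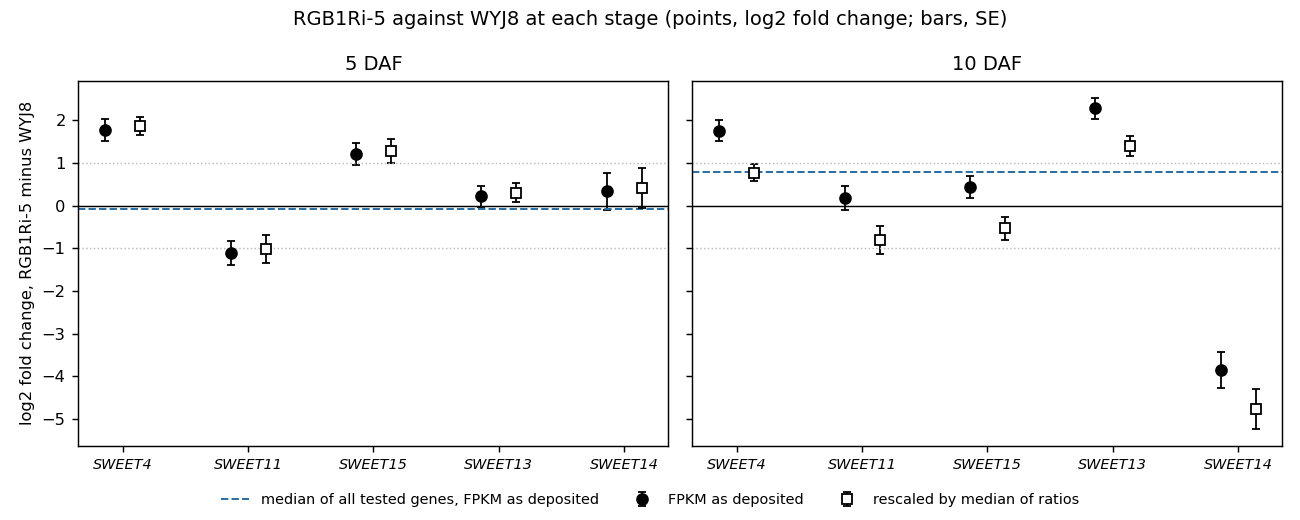
Log2 fold change of FPKM plus 1, *RGB1Ri-5* minus *WYJ8*, with SE from limma for the 5 tested *SWEET* genes at 5 DAF (left) and 10 DAF (right), filled circles for FPKM as deposited and open squares after median-of-ratios rescaling. Both scalings nearly coincide at 5 DAF, where the dashed median of all tested genes is at -0.07, and lie apart at 10 DAF, where it is at 0.80; *SWEET14* is at -3.85 and -4.76 there.

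The shares at 10 DAF, which do not change when a library is multiplied by 1 factor, set the same 3 members apart. *SWEET14* took 0.809% ± 0.670 of the summed FPKM of the 6 genes in *RGB1Ri-5* and 16.5% ± 4.66 in *WYJ8* (SD, n = 3 each). *SWEET13* took 4.30% ± 1.24 in *RGB1Ri-5* and 1.04% ± 0.108 in *WYJ8* (SD, n = 3 each). *SWEET4* took 36.5% ± 13.9 in *RGB1Ri-5* and 14.1% ± 1.58 in *WYJ8* (SD, n = 3 each). None of the 3 overlapped between the genotypes (2-sided exact permutation test, p = 0.1 each, the smallest possible, adjusted p = 0.24 over 12 tests). Without replicate 2 of *RGB1Ri-5* the share differences, *RGB1Ri-5* minus *WYJ8*, were 29.4 percentage points for *SWEET4*, 3.97 for *SWEET13* and -16.1 for *SWEET14*, compared with 22.3, 3.26 and -15.7 with it. The share of *SWEET11*, 50.2% ± 15.0 in *RGB1Ri-5* and 59.8% ± 7.55 in *WYJ8* (SD, n = 3 each), overlapped (exact permutation p = 0.4, adjusted p = 0.53), and so did that of *SWEET15*, 8.26% ± 0.677 in *RGB1Ri-5* and 8.49% ± 1.63 in *WYJ8* (exact permutation p = 1.0). The summed level of the 6 genes was 725 ± 18.6 FPKM in *RGB1Ri-5* and 522 ± 66.0 FPKM in *WYJ8* (SD, n = 3 each).

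The libraries of *RGB1Ri-5* at 10 DAF differed in their *SWEET* make-up. The ratio of *SWEET4* to *SWEET11* was 0.748 in replicate 1, 0.340 in replicate 2 and 1.41 in replicate 3, against 0.296, 0.184 and 0.243 in *WYJ8*. Replicate 2, which had the highest starch gene sum of its group, also had the lowest ratio and the highest *SWEET11* and *SWEET14*. At this stage 6 of the 10 starch genes were lower in *RGB1Ri-5* and none was higher (10 lower after median-of-ratios rescaling), with sums of 1925 to 8508 FPKM in *RGB1Ri-5* and 7341 to 9326 FPKM in *WYJ8*. *NF-YB1* was at 8.04 to 109.6 FPKM in *RGB1Ri-5* and 252 to 331 FPKM in *WYJ8*. The storage protein genes summed to 138, 12076 and 99.5 FPKM in replicates 1, 2 and 3 of *RGB1Ri-5*, and to 44868 to 48625 FPKM in *WYJ8*. The light-harvesting and Rubisco genes summed to 2626, 1823 and 3521 FPKM in the same replicates of *RGB1Ri-5*, lowest in replicate 2, and to 1705, 1987 and 1488 FPKM in *WYJ8*. Of these 10 genes 4 were higher and none lower in *RGB1Ri-5* as deposited, beside 36.4% and 3.33% of all tested genes. After median-of-ratios rescaling none was higher and 3 were lower, beside 18.3% of all tested genes in either direction. The part of these differences in the *SWEET* values was not tested.

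Whether the genotype difference changed with the stage was tested as an interaction, the genotype difference at 10 DAF minus that at 5 DAF. *SWEET14*, *SWEET13* and *SWEET11* passed, 3 of the 5 tested members beside 48.3% of all tested genes (41.4% higher and 6.94% lower). Over all tested genes the median interaction was 0.86, and it was -0.05 after median-of-ratios rescaling, where 24.4% were past the threshold, 2370 of them higher and 2858 lower (8882 higher and 1491 lower as deposited). Beside those 24.4%, 4 of the 5 members passed after the rescaling, *SWEET13* higher and *SWEET14*, *SWEET15* and *SWEET4* lower.

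The interaction of *SWEET14* was -4.19 (SE 0.61, limma adjusted p = 0.000101) and its genotypes overlapped at 5 DAF and lay far apart at 10 DAF. For *SWEET13* it was 2.07 (SE 0.35, limma adjusted p = 0.000273). Both passed after median-of-ratios rescaling, at -5.19 for *SWEET14* and 1.09 for *SWEET13*. *SWEET11* had an interaction of 1.29 (SE 0.40, limma adjusted p = 0.0123), which was 0.21 (limma adjusted p = 0.735) after that rescaling. It passed under quantile normalization, at 1.24 (limma adjusted p = 0.0316). With an equal total without the 100 highest genes it did not, at 0.80 (limma adjusted p = 0.137), so the call rested on the scaling. *SWEET15* was at -0.76 (SE 0.36, limma adjusted p = 0.0743), and at -1.82 (limma adjusted p = 0.00285) after median-of-ratios rescaling, where it passed. Under quantile normalization *SWEET15* passed as well, at -1.33 (limma adjusted p = 0.0148). With an equal total without the 100 highest genes it passed at -1.24 (limma adjusted p = 0.0167). It also passed as deposited, at -1.08 (adjusted p = 0.00443), without replicate 3 of *WYJ8* at 5 DAF. *SWEET4* was at -0.019 (SE 0.36, limma adjusted p = 0.964) as deposited and at -1.09 (limma adjusted p = 0.0097) after median-of-ratios rescaling, where it passed. It did not pass under quantile normalization, at -0.97 (limma adjusted p = 0.17). Nor did it without the 100 highest genes, at -0.50 (limma adjusted p = 0.186). Without replicate 2 of *RGB1Ri-5* at 10 DAF, *SWEET14* (-4.72), *SWEET13* (2.34) and *SWEET11* (1.09) still passed as deposited, and *SWEET15* (-0.71) and *SWEET4* (0.31) did not.

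The stages were then compared within each genotype, and *SWEET14* moved in opposite directions. In *RGB1Ri-5* it averaged 5.79 ± 4.70 FPKM at 10 DAF and 33.4 ± 12.8 FPKM at 5 DAF (SD, n = 3 each), a log2 fold change of -2.49 (SE 0.43, limma adjusted p = 0.00067), which was -3.02 without replicate 2 of the 10 DAF libraries. In *WYJ8* it averaged 84.2 ± 16.4 FPKM at 10 DAF and 26.0 ± 10.0 FPKM at 5 DAF (SD, n = 3 each), a log2 fold change of 1.70 (SE 0.43, limma adjusted p = 0.00322). Both calls held after median-of-ratios rescaling, at -2.53 in *RGB1Ri-5* and 2.66 in *WYJ8*.

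*SWEET4* fell between the stages in both genotypes. It averaged 266 ± 107 FPKM at 10 DAF and 939.9 ± 184 FPKM at 5 DAF in *RGB1Ri-5* (SD, n = 3 each), a log2 fold change of -1.89 (SE 0.25, limma adjusted p = 0.00012), or -1.55 without replicate 2 of the 10 DAF libraries. In *WYJ8* it averaged 73.2 ± 3.45 FPKM at 10 DAF and 269.9 ± 22.2 FPKM at 5 DAF (SD, n = 3 each), a log2 fold change of -1.87 (SE 0.25, limma adjusted p = 5.26e-05). The median of all tested genes changed by 0.10 in *RGB1Ri-5* and by -0.77 in *WYJ8*. After median-of-ratios rescaling *SWEET4* was at -2.00 in *RGB1Ri-5* and at -0.90 in *WYJ8*, where it no longer reached the fold limit. In *WYJ8* it still passed under quantile normalization (-1.35) and with an equal total without the 100 highest genes (-1.27).

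*SWEET13* was lower at 10 DAF than at 5 DAF in *WYJ8*, with 5.44 ± 1.18 FPKM at 10 DAF and 19.6 ± 2.32 FPKM at 5 DAF (SD, n = 3 each) and a log2 fold change of -1.69 (SE 0.24, limma adjusted p = 7.99e-05). After median-of-ratios rescaling this was -0.82, below the fold limit. In *RGB1Ri-5* it had 31.3 ± 9.55 FPKM at 10 DAF and 23.5 ± 6.35 FPKM at 5 DAF (SD, n = 3 each), with overlapping ranges and a log2 fold change of 0.38 (SE 0.24, limma adjusted p = 0.234), or 0.65 (adjusted p = 0.0281), still below the fold limit, without replicate 2 of the 10 DAF libraries.

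*SWEET11* averaged 362 ± 99.98 FPKM at 10 DAF and 182 ± 68.3 FPKM at 5 DAF in *RGB1Ri-5* (SD, n = 3 each), with a log2 fold change of 1.02 (SE 0.29, limma adjusted p = 0.0128) that barely passed the fold limit. The call was lost without replicate 1 of the 5 DAF libraries (0.99), without replicate 3 of them (0.76), without replicate 2 of the 10 DAF libraries (0.82) and after median-of-ratios rescaling (0.91). In *WYJ8* it averaged 315 ± 77.7 FPKM at 10 DAF and 377 ± 57.0 FPKM at 5 DAF (SD, n = 3 each), with a log2 fold change of -0.27 (SE 0.29, limma adjusted p = 0.392) and 0.70 after median-of-ratios rescaling.

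*SWEET15* passed in neither genotype as deposited. Its log2 fold change was -0.34 (SE 0.26, limma adjusted p = 0.307) in *RGB1Ri-5* (-0.29 without replicate 2 of the 10 DAF libraries). In *WYJ8* it was 0.42 (SE 0.26, limma adjusted p = 0.1496). After median-of-ratios rescaling *SWEET15* passed in *WYJ8*, at 1.37 (limma adjusted p = 0.00185). There it also passed under quantile normalization, at 1.04 (limma adjusted p = 0.0095). With an equal total without the 100 highest genes it barely passed the fold limit, at 1.0092 (limma adjusted p = 0.00859). With an equal total of all genes it did not pass, at 0.33 (limma adjusted p = 0.251). The counts as deposited were 3 of 5 members in *RGB1Ri-5*, beside 16.9% of all tested genes (7.56% higher and 9.35% lower at 10 DAF). In *WYJ8* they were 3 of 5, beside 35.5% of all tested genes (2.11% higher and 33.3% lower at 10 DAF). After median-of-ratios rescaling 2 members passed in *RGB1Ri-5*, beside 16.3% of all tested genes, and 2 in *WYJ8*, beside 14.4%. In FPKM as deposited, the stages did not overlap for *SWEET4*, *SWEET11* and *SWEET14* in *RGB1Ri-5*, as for 53.3% of all tested genes, nor for *SWEET4*, *SWEET13* and *SWEET14* in *WYJ8*, as for 83.6%. With the rescaling 1463 genes were higher and 1626 lower at 10 DAF in *WYJ8*, compared with 454 higher and 7159 lower as deposited.

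**Figure D4:**
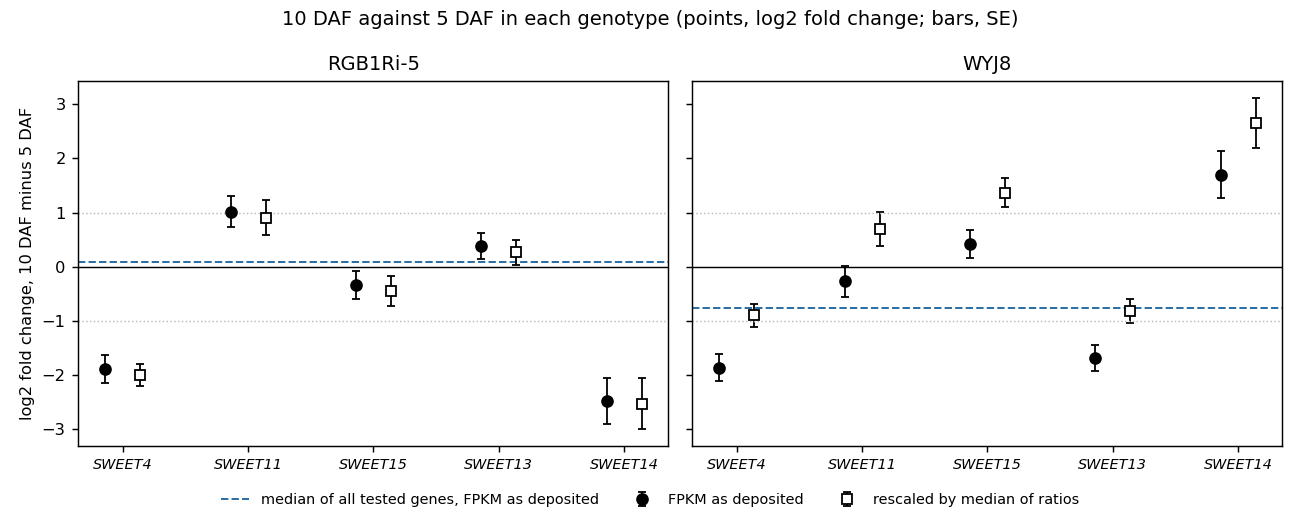
Log2 fold change of FPKM plus 1, 10 DAF minus 5 DAF, with SE from limma for the 5 tested *SWEET* genes in *RGB1Ri-5* (left) and *WYJ8* (right), filled circles for FPKM as deposited and open squares after median-of-ratios rescaling. *SWEET14* lies at -2.49 in *RGB1Ri-5* and at 1.70 in *WYJ8*, while *SWEET4* lies at -1.89 and -1.87 as deposited; the dashed line is the median of all tested genes, 0.10 in *RGB1Ri-5* and -0.77 in *WYJ8*.

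The late *RGB1Ri-5* caryopses were also set against the early *WYJ8* caryopses, since these groups differed in few genes, 1.09% of all tested (0.554% higher and 0.54% lower in *RGB1Ri-5*). That count, 235 genes, rested on replicate 2 of *RGB1Ri-5*, without which 799 genes passed. *SWEET4* averaged 266 ± 107 FPKM in *RGB1Ri-5* at 10 DAF and 269.9 ± 22.2 FPKM in *WYJ8* at 5 DAF (SD, n = 3 each), a log2 fold change of -0.10 (SE 0.25, limma adjusted p = 0.875). *SWEET11* averaged 362 ± 99.98 FPKM in *RGB1Ri-5* at 10 DAF and 377 ± 57.0 FPKM in *WYJ8* at 5 DAF (SD, n = 3 each), a log2 fold change of -0.08 (SE 0.29, limma adjusted p = 0.914). Without replicate 2 of *RGB1Ri-5* these were 0.23 for *SWEET4* and -0.28 for *SWEET11*. A missed threshold does not show that the levels were equal, and the SE give the precision of each value.

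*SWEET14* was the only member past the threshold in that comparison, 1 of 5, at a log2 fold change of -2.15 (SE 0.43, limma adjusted p = 0.0269). It averaged 5.79 ± 4.70 FPKM in *RGB1Ri-5* at 10 DAF and 26.0 ± 10.0 FPKM in *WYJ8* at 5 DAF (SD, n = 3 each), without overlap, as was also the case for *SWEET15* and for 17.3% of all tested genes. After median-of-ratios rescaling it was -2.11 and still passed, beside 0.913% of all tested genes. The call was lost without replicate 1 of *WYJ8* (adjusted p = 0.0689), without replicate 3 of *WYJ8* (0.127), and without replicate 1 (0.114) or replicate 3 (0.0703) of *RGB1Ri-5*, although the log2 fold change stayed between -2.68 and -1.76. Without replicate 2 of *RGB1Ri-5* it was -2.68 (adjusted p = 0.000742) and passed. It was also lost when the replicate numbers were fitted as a block (adjusted p = 0.0558), in a fit of only the libraries compared (adjusted p = 0.179) and with no filter on low values (adjusted p = 0.0585). *SWEET15* had a log2 fold change of 0.87 (SE 0.26, limma adjusted p = 0.113) and *SWEET13* of 0.61 (SE 0.24, limma adjusted p = 0.232). Without replicate 2 of *RGB1Ri-5* these were 0.92 and 0.88, below the fold limit. *SWEET15* did pass, at 1.19 (adjusted p = 0.0258), without replicate 3 of *WYJ8*.

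Genes that share the sugar route were counted beside the members. The identifiers of these and of the storage protein genes come from general knowledge and were not checked against a table of names. Their counts stand beside 10.8% of all tested genes higher and 10.1% lower in *RGB1Ri-5* at 5 DAF. At 10 DAF those shares were 36.4% and 3.33% as deposited, and 18.3% in either direction after median-of-ratios rescaling. With so few genes in a list, the counts are a description. Of 15 identifiers of other *SWEET* loci, 11 were listed and 8 were tested, and at 5 DAF 6 were higher and 2 lower in *RGB1Ri-5*, with a median log2 fold change of 1.35 and a range of -1.82 to 6.50. Their summed level was 917 to 1383 FPKM in *RGB1Ri-5* at 5 DAF and 68.6 to 93.9 FPKM in *WYJ8*. The 6 members summed to 1048 to 1569.5 FPKM in those *RGB1Ri-5* libraries, so shares of their sum are not shares of all *SWEET* loci. At 10 DAF the other loci summed to 48.3 to 316 FPKM in *RGB1Ri-5*, highest in replicate 3, and to 47.9 to 59.0 FPKM in *WYJ8*. At 10 DAF 4 were higher and 1 lower as deposited, and none was higher and 1 lower after median-of-ratios rescaling. The members were thus not the only *SWEET* genes that differed.

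SUT proteins load sucrose together with protons, and 5 identifiers of SUT genes were tested. At 5 DAF 1 was higher in *RGB1Ri-5* and none lower, with sums of 156 to 188 FPKM in *RGB1Ri-5* and 125 to 143 FPKM in *WYJ8*, and at 10 DAF 1 was higher and none lower as deposited (1 higher and 1 lower after median-of-ratios rescaling). Cell wall invertases split sucrose into hexoses outside the cell. Of 8 such genes 4 were tested, with 1 higher and 1 lower at 5 DAF and 2 higher at 10 DAF in *RGB1Ri-5*. Their sums at 10 DAF were 86.5 to 134 FPKM in *RGB1Ri-5* and 32.5 to 38.4 FPKM in *WYJ8*.

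Sucrose synthases cleave sucrose inside the cell. Of 7 such genes 4 were tested, and at 5 DAF 2 were lower and none higher in *RGB1Ri-5*, with sums of 381 to 434 FPKM in *RGB1Ri-5* and 1458 to 2588 FPKM in *WYJ8*. At 10 DAF 3 were higher and 1 lower as deposited, and none was higher and 1 lower after median-of-ratios rescaling. Of 5 storage protein genes, 4 were lower and none higher in *RGB1Ri-5* at 5 DAF, and 3 were lower and 2 higher at 10 DAF (3 lower and 1 higher after the rescaling). However, 1 of those higher genes is the abundant gene unlisted in every *WYJ8* library at 10 DAF, whose 0 can be a failed estimate. Without it 3 were lower and 1 higher at 10 DAF, and 3 lower and 0 higher after the rescaling. Between late *RGB1Ri-5* and early *WYJ8*, log2 fold changes ran from -1.62 to 0.52 over the other *SWEET* loci. They ran from -0.22 to 0.16 over SUT genes, from -0.47 to 0.63 over cell wall invertases and from -0.19 to 0.40 over sucrose synthases. Starch genes ran from -0.90 to -0.016 and storage protein genes from -5.09 to 0.29, and *NF-YB1* was at -2.77. None of these genes passed the threshold in that comparison. Light-harvesting and Rubisco genes ran from -0.26 to 1.61, and 2 of them were higher in *RGB1Ri-5*.

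Across the 12 libraries the members did not follow 1 pattern. Pearson's r of log2 values was 0.73 between *SWEET4* and *SWEET13*, -0.56 between *SWEET4* and *SWEET11* and -0.84 between *SWEET13* and *SWEET14*, given as a description because the libraries fall into 4 groups and share their scaling. Among 10530 genes averaging 10 FPKM or more, the profiles nearest to *SWEET4* were those of LOC_Os12g44360 (r = 0.996) and LOC_Os07g48090 (r = 0.995), which averaged 55.1 and 61.6 FPKM in *RGB1Ri-5* at 5 DAF, against 21.6 and 14.4 FPKM in *WYJ8*, and 23.5 and 13.2 FPKM in late *RGB1Ri-5*, against 7.91 and 1.62 FPKM in late *WYJ8*. The nearest to *SWEET11* were LOC_Os06g09370 (r = 0.939) and LOC_Os11g37560 (r = 0.928). For *SWEET15* the nearest pair of genes reached r = 0.879 and r = 0.857. The table of gene names at hand does not pair these identifiers with names.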

How the data were processed

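RNA-seq of caryopses from *RGB1Ri-5* and *WYJ8* at 5 and 10 DAF was re-analysed (12 libraries, 3 per group). The authors filtered the reads, mapped them with TopHat 2.1.0 to MSU Release 7 and deposited FPKM per gene from Cufflinks 2.1.1, 1 set of values per library. Counts and depths were not used here, so no counting error is given.

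Groups came from the sample labels. Unlisted genes were set to 0. For the 21470 genes averaging 1 FPKM or more, the log2 of FPKM plus 1 was fitted in R 4.3.3 (limma 3.58.1, 4 group means, mean-variance trend, Benjamini-Hochberg over all tested genes). Calls needed a 2-fold change (1 on the log2 scale) at an adjusted p under 0.05. Shares were compared by exact permutation (SciPy 1.17.1). The procedure was tested on simulated data. The genes named were the 6 members, *NF-YB1* and, for *SWEET4*, *SWEET11* and *SWEET15*, the nearest 2 profiles. Members and lists (other *SWEET* loci, SUT, cell wall invertases, sucrose synthases, starch, storage protein and light-harvesting genes) were chosen with earlier results of these data known. No source used here states that same-numbered libraries were paired, and the main fit uses no pairing. Deviations of same-numbered libraries from their group means did not correlate at over 0.1 in every pair of most groups (-0.54 to 0.16). The exception was between the stages of *WYJ8*, with 3 of 3 pairs over 0.1 (0.11 to 0.25). These correlations are low and do not establish a pairing, so a block was tried in that comparison as an alternative only. A replicate block there, in a fit of the *WYJ8* libraries chosen after seeing the data, gave 7738 genes in place of 7613 and the same 3 members. Alternatives were another pseudocount (0.1), other filters (none, or a mean of 5 FPKM), 4 rescalings (quantiles, median of ratios, a common total of 1000000 and that without the 100 highest genes), unlisted values as missing, no trend, only the libraries compared, a replicate block and each library left out. RefSeq sequences of the members were not used here.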

Additional observations from a re-analysis of the deposited data

Results flagged for a closer look

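In FPKM as deposited, the genotype difference changed between the stages for 3 members, by the test of the interaction (10 DAF minus 5 DAF, log2 scale, limma). *SWEET14* was flagged at -4.19, with 3 of 3 *RGB1Ri-5* libraries below every *WYJ8* library at 10 DAF and an overlap at 5 DAF. *SWEET13* was flagged at 2.07, with 3 of 3 *RGB1Ri-5* libraries above every *WYJ8* library at 10 DAF and an overlap at 5 DAF. *SWEET11* was flagged at 1.29, with 3 of 3 *RGB1Ri-5* libraries below every *WYJ8* library at 5 DAF and an overlap at 10 DAF, and this value did not pass after median-of-ratios rescaling, where *SWEET15* (-1.82) and *SWEET4* (-1.09) did. With 48.3% of all tested genes past the same threshold, a flag of this kind was common in these data. Groups of 3 libraries are too small for a test of single outlying libraries.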

How the results depend on the processing

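Of 540 values of single members under the alternatives, 495 kept their direction and their side of the threshold, 19 lost the call, 9 gained it and 17 changed sign. Counts of all genes moved by over 1.5 times under median of ratios, quantile normalization and the equal total without the 100 highest genes, to 3939, 3575 and 4761 at 10 DAF, to 3089, 2666 and 3866 between the stages in *WYJ8*, and to 5228, 5441 and 6667 for the interaction. Restricted to means of 5 FPKM or more, 2401 genes passed between the stages in *RGB1Ri-5*. Between late *RGB1Ri-5* and early *WYJ8*, 108 genes passed with that restriction, 87 in a fit of only those libraries, and 115 to 799 with a library left out (799 without replicate 2 of *RGB1Ri-5*). In that comparison 0 members passed with no filter, with the replicate block and in the fit of only those libraries, and 0 to 1 with a library left out. Signs changed at 10 DAF for *SWEET11* (-0.80 under median of ratios, -0.44 without the 100 highest genes, -0.0088 to 0.40 with a library left out) and *SWEET15* (-0.53, -0.17 under quantile normalization and -0.18), in *WYJ8* between the stages for *SWEET11* (0.70 and 0.33), and for the *SWEET4* interaction (0.14 with an equal total, -0.30 to 0.31 with a library left out). Between late *RGB1Ri-5* and early *WYJ8*, leaving out a library gave -0.39 to 0.23 for *SWEET4* and -0.28 to 0.12 for *SWEET11*. As a percentage of all FPKM in place of the *SWEET* sum, the share difference changed sign for *SWEET13* (0.000601) and *SWEET14* (0.00118) at 5 DAF and for *SWEET11* (0.0134) and *SWEET15* (0.00351) at 10 DAF. That of *SWEET15* at 10 DAF in the *SWEET* sum ran from -0.71 to 0.71 percentage points with a library left out. The cause was not tested. Replicate numbers were not shown to pair the libraries, and 4 of 12 libraries correlated best with their own number. With the replicate block in all 12 libraries 167 genes, in place of 235, passed between late *RGB1Ri-5* and early *WYJ8*, where the *SWEET14* call was lost (adjusted p = 0.0558), and changed no other member's call. Reads per library are unknown, so the precision of low values such as *SWEET12* cannot be given.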
